A study of Mus musculus with 12 samples.

Results

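The transcript levels of 7 genes were followed through the culture of mouse cochlear glial cells: Lin28a, Lin28b, Hmga1, Hmga2, Igf2bp1, Igf2bp2 and Igf2bp3. They were picked by gene symbol, not by a measured value, and each matched 1 of the 55487 genes of the deposited table. RNA-seq was performed on 12 libraries in 4 groups of 3, which the study made to compare glial spheres with cells differentiated from them in 3 media. Mice were of mixed C57Bl6 and FVB/N descent and postnatal day 4, and the described preparation joins spiral ganglia from several animals of both sexes, so each library is a culture rather than an animal. Spheres grew in a medium with EGF, bFGF at 10 ng/ml, IGF and heparan sulfate. The other 3 groups began as spheres plated on poly-L-ornithine and laminin and were kept for 14 days in a differentiation medium. SCDM contained 50 ng/ml of BDNF and 50 ng/ml of NT3, to which SCDM/FGF added 100 ng/ml bFGF. FIBCL was a Neurobasal medium, listed without BDNF or NT3, with bFGF (given as both 100 and 50 ng/ml), 20 µM Forskolin, 20 µM ISX9, 1 µM I-BET, 10 µM CHIR99021 and 1000 U/ml LIF. SCDM was therefore the only one of the 4 media without bFGF. The FIBCL columns of the table are headed FIBC, a name the study also gives to the mixture without LIF, and they were read as FIBCL because the labels hold no other such group. No genotype beyond the mixed background is labelled for these libraries.

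Lin28a and Lin28b are RNA-binding proteins that stop maturation of the let-7 microRNAs in embryonic cells. Let-7 in turn silences mRNAs that carry its seed match, among them those of Lin28 itself, of the chromatin protein Hmga2 and of the IGF2BP family, so the genes form a circuit that is active in fetal tissue and fades as cells mature. HMGA proteins bend AT-rich DNA, and IGF2BP proteins bind and stabilise mRNAs such as Igf2 and Myc. In the cochlea, Lin28 and let-7 are known for their part in the timing of progenitor growth.

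The link to let-7 can be read in the sequences. Of 11 mature let-7 family members listed by RefSeq (GRCm38.p6), 10 share the same bases 2 to 8, the seed. A few family members are shown here with the seed in capitals, because the seed is what the target sites match.
mmu-let-7a-5p: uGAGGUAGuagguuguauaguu
mmu-let-7b-5p: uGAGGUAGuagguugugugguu
mmu-let-7g-5p: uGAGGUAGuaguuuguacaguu
mmu-miR-98-5p: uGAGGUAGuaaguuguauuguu

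The reverse complement of the seed, CTACCTC, was searched on the transcript strand of the longest annotated 3′ UTR of each gene (GENCODE M21, GRCm38). All 7 genes held at least 1 match, and together they held 17, of which 9 were followed by an A. Lin28b, Hmga2 and Igf2bp1 held 4 matches each, Lin28a held 2, and Hmga1, Igf2bp2 and Igf2bp3 held 1 each. Among all 20962 protein-coding genes with such a UTR, 8.96% held at least 1 match, 1.07% held at least 2 and 0.153% (32 genes) held at least 3. The UTRs differ in length, from 1183 bases in Hmga1 to 6337 in Igf2bp1. Among the 2415 genes whose UTR was 0.8 to 1.25 times as long as that of Hmga2, 0.124% held as many matches as Hmga2. The same share was 0.297% of 1346 genes for Lin28b, 0.333% of 601 genes for Igf2bp1 and 2.07% of 2606 genes for Lin28a. For the genes with 1 match it was 8.12% for Hmga1, 12.1% for Igf2bp2 and 13.3% for Igf2bp3. A match of this kind is a description of the letters and was not measured as a bound site. The window of 30 bases around the match nearest to the stop codon is shown for each gene, with the match in capitals.
Lin28a: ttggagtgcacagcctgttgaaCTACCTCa
Lin28b: tcccttcacccgggcgggaagtCTACCTCa
Hmga1: catcttctcctctgttcacaaaCTACCTCt
Hmga2: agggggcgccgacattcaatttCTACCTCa
Igf2bp1: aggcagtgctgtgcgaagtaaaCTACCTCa
Igf2bp2: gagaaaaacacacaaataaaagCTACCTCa
Igf2bp3: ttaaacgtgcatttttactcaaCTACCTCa

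These 3′ UTR windows lie on the minus strand of GRCm38, except that of Hmga1, which lies on the plus strand. Their positions are chr4:134005189-134005218 in Lin28a, chr10:45381022-45381051 in Lin28b, chr17:27563270-27563299 in Hmga1 and chr10:120364224-120364253 in Hmga2. Those of the IGF2BP genes are chr11:95961778-95961807 in Igf2bp1, chr16:22059473-22059502 in Igf2bp2 and chr6:49086787-49086816 in Igf2bp3. The map of seed matches along the UTRs shows that the first match of Lin28b began 36 bases and that of Hmga2 58 bases after the stop codon, whereas that of Igf2bp1 began 1715 bases after it. The libraries were made from poly(A) RNA, and all 11 let-7 gene rows of the table are listed at 0 in every library, so the microRNA itself was not measured.

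**Figure D1:**
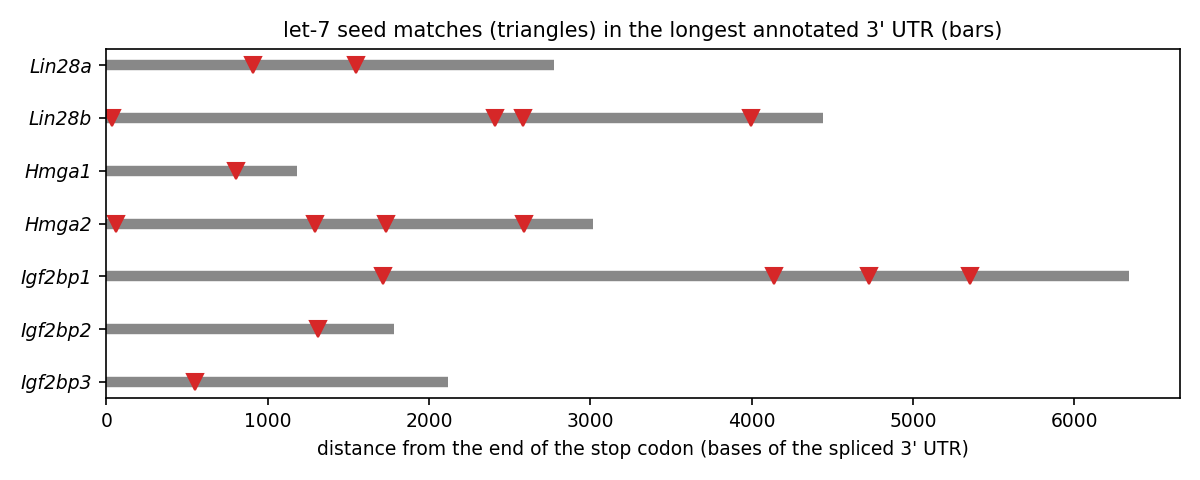
Positions of the let-7 seed match (triangles) along the longest annotated 3′ UTR of each gene (bars), in bases after the stop codon. Lin28b, Hmga2 and Igf2bp1 carry 4 matches each, and every other gene carries 1 or 2.

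The table gives TPM (transcript abundance scaled to a fixed total per library), which the authors computed with RSEM and which keeps no read counts, so the depth behind a value is unknown. The listed TPM of the FIBCL libraries summed to between 899290 and 911080, against 982070 to 994840 in the other 9 libraries. Libraries were therefore rescaled by a trimmed mean of ratios, and levels below are rescaled TPM unless deposited TPM is named. Over all tested genes, FIBCL minus SCDM had a median log2 fold change of -0.40 before rescaling and -0.07 after it. Differences were fitted with limma on log2(rescaled TPM + 1), a scale that understates the change of low genes, over 16016 genes that reached 1 TPM in 3 or more libraries, and adjusted p-values are Benjamini-Hochberg values over those genes. Of the 7 genes, 5 passed this limit, and both Lin28 genes did not. Igf2bp1 reached 1 TPM in all 3 FIBCL libraries and in 1 sphere library, so it passed through the group in which it was highest, and counts over the 5 tested genes carry that selection. The p-values rest on the spread between libraries within groups, pooled over all groups and moderated across genes, so the same spread serves every comparison of a gene. Nothing in the labels says which animals a library came from.

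Cell type markers moved with the groups. The summed level of 10 Schwann and satellite glia markers was 20.4 to 27.0 in FIBCL, 266 to 305 in SCDM, 265 to 323 in SCDM/FGF and 810 to 849 in spheres, and none of the 10 was at 0 in any group. The summed level of 10 neuronal markers was 465 to 486 in FIBCL and 15.6 to 26.6 in the other groups. Mesenchyme markers summed to 222 to 237 in FIBCL against 2643 to 6039 elsewhere. Against each other group, 8 of the 10 mesenchyme markers were called lower in FIBCL and 2 higher. In those comparisons 38.2 to 39% of all genes were lower and 32.5 to 32.9% higher. Macrophage markers summed to 1969 to 2327 in SCDM and SCDM/FGF against 157 to 205 in spheres and FIBCL. The sums of the last 2 hide a difference. In FIBCL, 9 of the 10 macrophage markers were called lower than in spheres and 1 higher, where 38.7% of all genes were lower and 32.9% higher. The 5 endothelial markers summed to 36.6 to 40.4 in SCDM/FGF, 13.1 to 13.7 in FIBCL, 11.7 to 14.6 in spheres and 8.43 to 8.92 in SCDM. That order came from Cdh5, a junction protein, at 36.6 ± 2.21 TPM in SCDM/FGF against 1.32 ± 0.261 TPM in SCDM (SD, n = 3). Kdr and Tek, which encode endothelial receptors, were lower in SCDM/FGF, at 0.692 and 0.631 TPM against 1.81 and 4.79 TPM in SCDM. Melanocyte markers summed to between 0.561 and 2.15 in every library. The 12 markers of cycling cells summed to 119 to 125 in FIBCL, 198 to 205 in spheres and 332 to 470 in the other 2 groups. In bulk RNA, fewer cells of a type and less RNA per cell cannot be told apart, and the part of cell composition in the differences that follow was not tested.

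Both Lin28 genes were listed above 0.1 TPM in FIBCL only, and at a low level there. Lin28a (ENSMUSG00000050966, chr4:134003330-134018841, minus strand) was at 0.21, 0.24 and 0.15 deposited TPM in the 3 FIBCL libraries and was listed at 0 in all 9 others. Lin28b (ENSMUSG00000063804, chr10:45376620-45486395, minus strand) was at 0.73, 0.56 and 0.61 deposited TPM in FIBCL, at 0.06 in 1 SCDM library, at 0.02 in 1 SCDM/FGF library, and listed at 0 in the other 7. For both genes every FIBCL library was above every other library.

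Because TPM is per length, the Lin28 levels can be set beside each other, and Lin28b was the higher of the pair in each FIBCL library. Mean rescaled levels in FIBCL were 0.248 ± 0.0493 TPM for Lin28a and 0.787 ± 0.0925 TPM for Lin28b (SD, n = 3). An exact permutation test of FIBCL against any 1 other group gave a two-sided p of 0.1 for each gene, which is the smallest that 3 against 3 libraries can give. With the limit lowered to 0.1 TPM, the limma adjusted p for FIBCL minus SCDM was 0.000217 for Lin28a and 3.15e-07 for Lin28b, for genes that pass such a limit only through FIBCL. The spread in that fit is pooled over all groups, and a group listed at 0 throughout adds none to it. These p-values are therefore no support beyond the listed values. Among all 55487 genes of the table, 175 were listed at 0 in all 9 other libraries and above 0 in all 3 FIBCL libraries, and 90 of those were at 0.1 TPM or more in all 3. A different form, which Lin28b meets and Lin28a does not, at most 0.1 TPM in all 9 and at least 0.5 TPM in all 3 FIBCL libraries, held for 125 genes. Trim71, a ubiquitin ligase and let-7 target of embryonic cells with 4 seed matches in its own 3′ UTR, was also highest in FIBCL but met neither of these 2 forms, with 0.461 ± 0.0103 TPM in FIBCL (SD, n = 3), 0.00335 ± 0.00581 TPM in SCDM/FGF and listed values of 0 in spheres and SCDM.

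**Figure D2:**
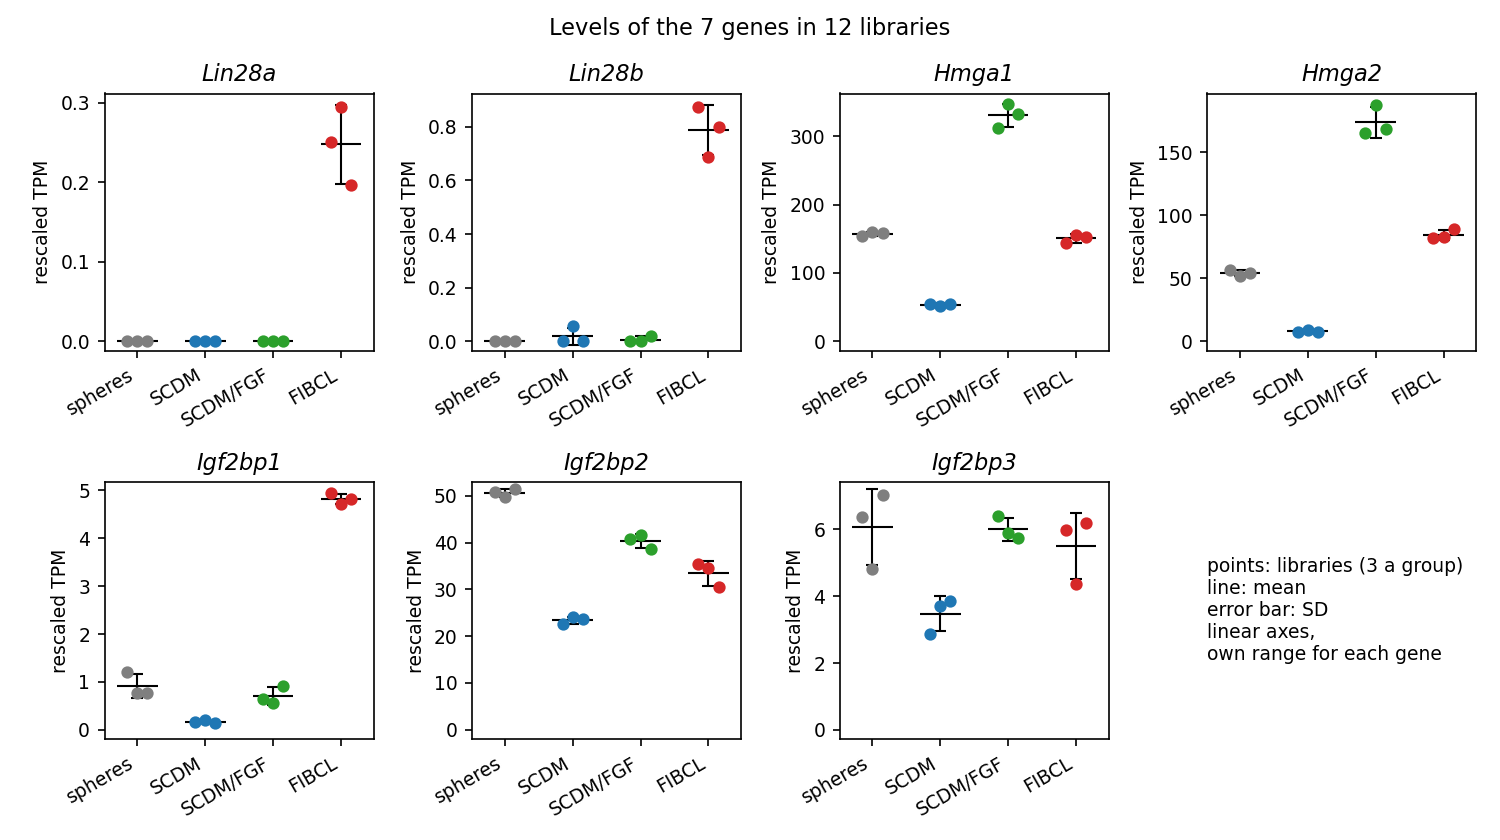
Rescaled TPM of the 7 genes in each of the 12 libraries (points), with the group mean (line) and SD (bar), on linear axes of their own range. Lin28a, Lin28b and Igf2bp1 are highest in FIBCL, Hmga1 and Hmga2 in SCDM/FGF, and the 5 genes from Hmga1 to Igf2bp3 are lowest in SCDM.

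Hmga2 had the largest log2 fold change of the tested genes on the log2(rescaled TPM + 1) scale. Hmga2 encodes an architectural DNA-binding protein of fetal and stem cells and lies at chr10:120361275-120476469 on the minus strand (ENSMUSG00000056758). Its rescaled level was 165, 188 and 169 TPM in SCDM/FGF, 81.8, 82.9 and 89.0 in FIBCL, 56.7, 51.5 and 54.2 in spheres, and 7.28, 8.74 and 7.41 in SCDM. No 2 groups overlapped. With bFGF added to SCDM, Hmga2 was 22.3-fold higher in mean rescaled TPM, with a log2 fold change of 4.31 ± 0.0726 (SE, limma adjusted p = 1.19e-11), the 20th highest among the 16016 genes tested. In SCDM it was 6.93-fold lower than in spheres (log2 fold change -2.65, adjusted p = 4.02e-10). In FIBCL it was 10.8-fold higher than in SCDM (log2 fold change 3.28, adjusted p = 9.9e-12) and 2.06-fold lower than in SCDM/FGF (log2 fold change -1.03, adjusted p = 1.49e-07). Against spheres, Hmga2 was 3.21-fold higher in SCDM/FGF (adjusted p = 9.83e-09). It was 1.56-fold higher in FIBCL than in spheres (log2 fold change 0.63, adjusted p = 1.03e-05), a call that is lost on deposited TPM (0.10, adjusted p = 0.262).

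Hmga1, the broadly expressed relative of Hmga2, was at a higher level than Hmga2 in every library and was also highest in SCDM/FGF and lowest in SCDM. The gene (ENSMUSG00000046711) lies at chr17:27556497-27563674 on the plus strand. Its rescaled level was 312, 347 and 333 TPM in SCDM/FGF, 154, 159 and 158 in spheres, 144, 155 and 153 in FIBCL, and 54.7, 51.6 and 54.9 in SCDM. Only the sphere and FIBCL libraries overlapped. Hmga1 was 6.15-fold higher in SCDM/FGF than in SCDM (log2 fold change 2.60 ± 0.0466, adjusted p = 2.11e-11) and 2.80-fold higher in FIBCL than in SCDM (1.47, adjusted p = 1.52e-10). In SCDM it was 2.92-fold lower than in spheres (-1.53, adjusted p = 7.27e-10), and in SCDM/FGF it was 2.11-fold higher than in spheres (1.07, adjusted p = 9.83e-09). FIBCL was 2.20-fold lower than SCDM/FGF (-1.13, adjusted p = 1.4e-09). The difference between FIBCL and spheres was -0.06 on the log2 scale (95% interval -0.16 to 0.04, adjusted p = 0.261), and it depended on the scaling: on deposited TPM it was -0.60 (adjusted p = 1.18e-07) and with quantile normalization -0.11 (adjusted p = 0.0305).

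The value of Hmga1 is uncertain in 1 respect. Of its 50-base words, 86.0% also occur in Hmga1b, a near-identical gene at chr11:120762794-120764419 (ENSMUSG00000078249) to which reads of Hmga1 can be assigned. Hmga1b was listed at 0.435 to 0.741 times the TPM of Hmga1 in FIBCL, and at 0.522 to 0.638 times in the other groups. Its rescaled level was 184 to 221 TPM in SCDM/FGF, 82.4 to 89.1 in spheres, 67.3 to 113 in FIBCL and 29.0 to 31.0 in SCDM, the same order as Hmga1 apart from overlapping spheres and FIBCL. When both rows were summed, a step added after seeing the data, every call of the 5 tested genes in the 6 comparisons stayed on its side of the threshold. On the opposite strand, AI413582 shares 102 exonic bases with Hmga1 and was at 37.4 to 105 deposited TPM, and 1700006J14Rik shares 140 with Hmga2 and was at 0.85 deposited TPM or less.

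The make-up of the HMGA pair differed between groups. Hmga2 made up 11.8, 14.5 and 11.9% of the summed Hmga1 and Hmga2 TPM in SCDM, 26.9, 24.5 and 25.6% in spheres, 34.6, 35.1 and 33.6% in SCDM/FGF and 36.3, 34.9 and 36.8% in FIBCL. The SCDM libraries lay below the other 9, and each other group differed from SCDM with an exact permutation p of 0.1, the smallest possible. SCDM/FGF and FIBCL overlapped. These shares do not change with the scaling of a library.

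**Figure D3:**
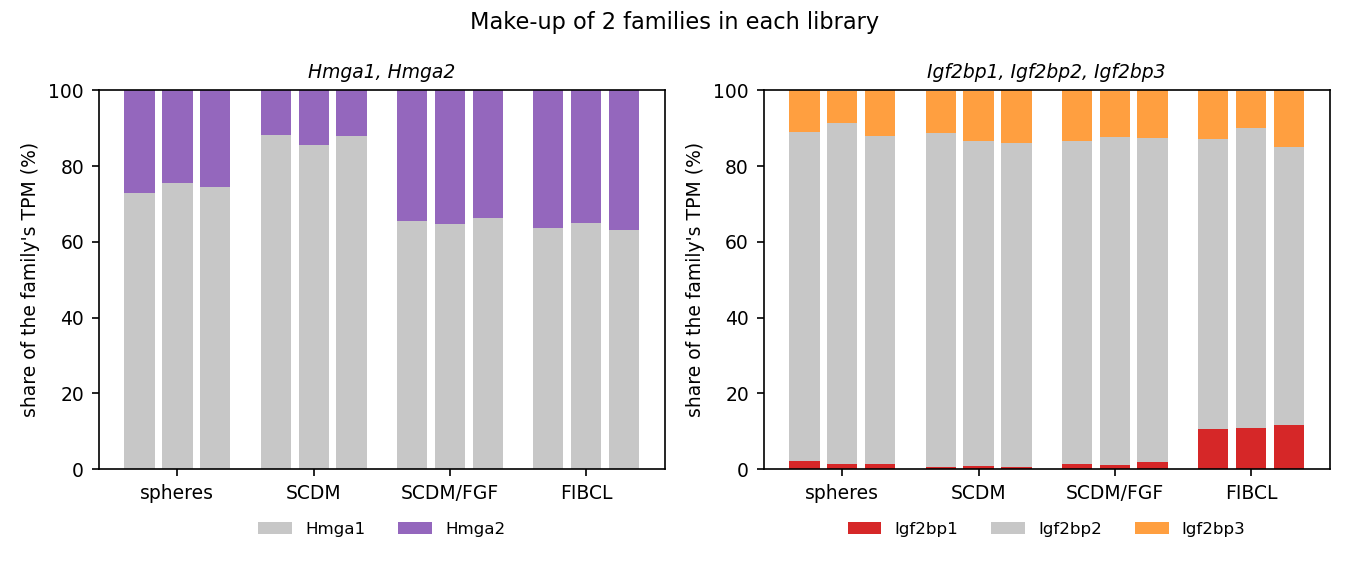
Share of each gene in the summed TPM of its family, 1 bar per library and 3 libraries per group. The Hmga2 share is 11.8 to 14.5% in SCDM and 33.6 to 36.8% in SCDM/FGF and FIBCL, and the Igf2bp1 share is 10.7 to 11.7% in FIBCL and at most 2.07% elsewhere.

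The 3 IGF2BP genes did not share 1 order of groups. Igf2bp1 (ENSMUSG00000013415, chr11:95957163-96005940, minus strand), an mRNA-stabilising protein of the fetus, was highest in FIBCL at 4.94, 4.72 and 4.83 rescaled TPM. It was at 1.21, 0.777 and 0.763 in spheres, 0.646, 0.553 and 0.914 in SCDM/FGF, and 0.171, 0.205 and 0.132 in SCDM. FIBCL stood above the other 9 libraries and SCDM below them, while spheres and SCDM/FGF overlapped. In mean rescaled TPM Igf2bp1 was 28.5-fold higher in FIBCL than in SCDM, 6.86-fold higher than in SCDM/FGF and 5.27-fold higher than in spheres. The log2 fold changes of Igf2bp1 were 2.32 ± 0.117, 1.78 and 1.61 (limma adjusted p = 7.93e-09, 8.43e-08 and 2.03e-07). The gene passed the limit on low values only through its FIBCL libraries, so these p-values carry that selection. With a pseudocount of 0.1 in place of 1, the first of these was 4.20. In SCDM, Igf2bp1 was 5.41-fold lower in mean rescaled TPM than in spheres (log2 fold change -0.71, adjusted p = 0.000409). It was 4.16-fold higher in SCDM/FGF than in SCDM, where the log2 difference for added bFGF was 0.54 (adjusted p = 0.00311). With the pseudocount of 0.1, these log2 values were -1.90 and 1.56. Spheres and SCDM/FGF differed by -0.17 (95% interval -0.43 to 0.09, adjusted p = 0.265).

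Igf2bp2 (ENSMUSG00000033581, chr16:22059009-22163299, minus strand) was the most abundant of the family in every library. Its rescaled level was 50.9, 49.7 and 51.3 TPM in spheres, 40.8, 41.7 and 38.7 in SCDM/FGF, 35.4, 34.6 and 30.4 in FIBCL, and 22.6, 24.0 and 23.7 in SCDM. No 2 groups overlapped on this scale. Igf2bp2 was 2.16-fold lower in SCDM than in spheres (log2 fold change -1.08, adjusted p = 4.73e-08) and 1.72-fold higher with bFGF than without (0.76, adjusted p = 9.51e-07). It was lower than in spheres in both SCDM/FGF (-0.32, adjusted p = 0.000769) and FIBCL (-0.59, adjusted p = 2.96e-06), and lower in FIBCL than in SCDM/FGF (-0.27, adjusted p = 0.00158). On deposited TPM, the FIBCL differences were -1.12 from spheres (adjusted p = 1.3e-07) and -0.57 from SCDM/FGF (adjusted p = 5.41e-05). FIBCL was 1.43-fold higher than SCDM (0.49, adjusted p = 1.21e-05), and on deposited TPM that difference was 0.11 (adjusted p = 0.253).

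Igf2bp3 (ENSMUSG00000029814, chr6:49085223-49214957, minus strand), another fetal member of the family, was lowest in SCDM. Its rescaled level was 6.36, 4.82 and 7.03 TPM in spheres, 6.40, 5.89 and 5.74 in SCDM/FGF, 5.97, 4.35 and 6.18 in FIBCL, and 2.87, 3.69 and 3.86 in SCDM. The SCDM libraries lay below the rest, and the other 3 groups overlapped each other. Igf2bp3 was lower in SCDM than in spheres (-0.65, adjusted p = 0.00359), higher in SCDM/FGF than in SCDM (0.65, adjusted p = 0.00426) and higher in FIBCL than in SCDM (0.53, adjusted p = 0.00743; 0.21 and adjusted p = 0.253 on deposited TPM). The other 3 differences were between -0.12 and 0.00 on the log2 scale with adjusted p-values of 0.491 to 0.999, and the 95% interval of FIBCL minus spheres was -0.45 to 0.21. On deposited TPM, Igf2bp3 was lower in FIBCL than in spheres (-0.58, adjusted p = 0.0051) and than in SCDM/FGF (-0.38, adjusted p = 0.0468). Malsu1, a gene on the opposite strand, shares 1529 exonic bases with Igf2bp3, was at 10.2 to 20.5 deposited TPM in the 12 libraries, and could exchange reads with it if strand was not used in counting, which the sources used here do not settle.

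Within the family, Igf2bp1 made up 10.7, 10.8 and 11.7% of the summed TPM of the 3 genes in FIBCL. Its share was 0.668, 0.736 and 0.477% in SCDM, 1.35, 1.15 and 2.02% in SCDM/FGF and 2.07, 1.40 and 1.29% in spheres. Igf2bp2 made up 85.3 to 89.9% of the family in the other 9 libraries and 73.4 to 79.2% in FIBCL, with no overlap and an exact permutation p of 0.1 against SCDM, the smallest possible. The Igf2bp3 share was 8.71 to 14.9% over the 12 libraries, and its FIBCL and SCDM values overlapped.

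Across comparisons, the count of tested genes that changed can be read against all genes. For added bFGF (SCDM/FGF minus SCDM), 5 of 5 were called higher, where 43.1% of all genes tested were called, 21.8% as higher. For SCDM minus spheres, 5 of 5 were called lower, where 50.3% of all genes were called, 25.8% as lower. For FIBCL minus SCDM, 5 of 5 were called higher, where 71.7% of all genes were called, 32.7% as higher. On deposited TPM, 3 of 5 were called, where 12202 of all genes were called in place of 11480. These 3 comparisons all use the SCDM libraries. When the log2 fold change also had to reach 1.5 in size, Hmga1 and Hmga2 stayed higher with bFGF, against 2.88% of all genes. The same pair stayed lower in SCDM than in spheres, against 2.41%, and Hmga2 and Igf2bp1 stayed higher in FIBCL than in SCDM, against 7.89%. Igf2bp1 was among the tested genes only through its FIBCL values, so its place in the last count was selected for.

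The remaining comparisons were mixed. For SCDM/FGF minus spheres, Hmga1 and Hmga2 were higher and Igf2bp2 lower, and 2 were not called, where 25% of all genes were higher, 25.4% lower and 50.4% called. For FIBCL minus spheres, Hmga2 and Igf2bp1 were higher, Igf2bp2 was lower and 2 were not called, where 32.9% of all genes were higher, 38.7% lower and 71.6% called. On deposited TPM, 1 of the 5 was higher and 3 were lower than in spheres, where 12487 of all genes were called in place of 11470. For FIBCL minus SCDM/FGF, Igf2bp1 was higher, Hmga1, Hmga2 and Igf2bp2 were lower and Igf2bp3 was not called, where 32.5% of all genes were higher, 38.2% lower and 70.7% called. For that comparison on deposited TPM, 1 was higher and 4 were lower, where 11536 of all genes were called in place of 11327.

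Seen by group, all 3 SCDM libraries lay below the other 9 for each of the 5 tested genes, a position held by 7.65% of all genes tested, and for 3 of the 5 on deposited TPM. All 3 SCDM/FGF libraries lay above the other 9 for Hmga1 and Hmga2 (8.5% of all genes), all 3 FIBCL libraries did so for Igf2bp1 (23.6%) and all 3 sphere libraries for Igf2bp2 (11.3%). Igf2bp1 was tested only because of its FIBCL values. With added bFGF, 3 of 10 macrophage markers were called higher and 4 lower, 1 of 12 cycling markers was called higher and 2 lower, and of 5 endothelial markers Cdh5 was called higher (4.02, adjusted p = 2.06e-10) and 2 lower, where 21.8% of all genes were higher and 21.3% lower. The part of endothelial cells in the bFGF differences was not tested.

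**Figure D4:**
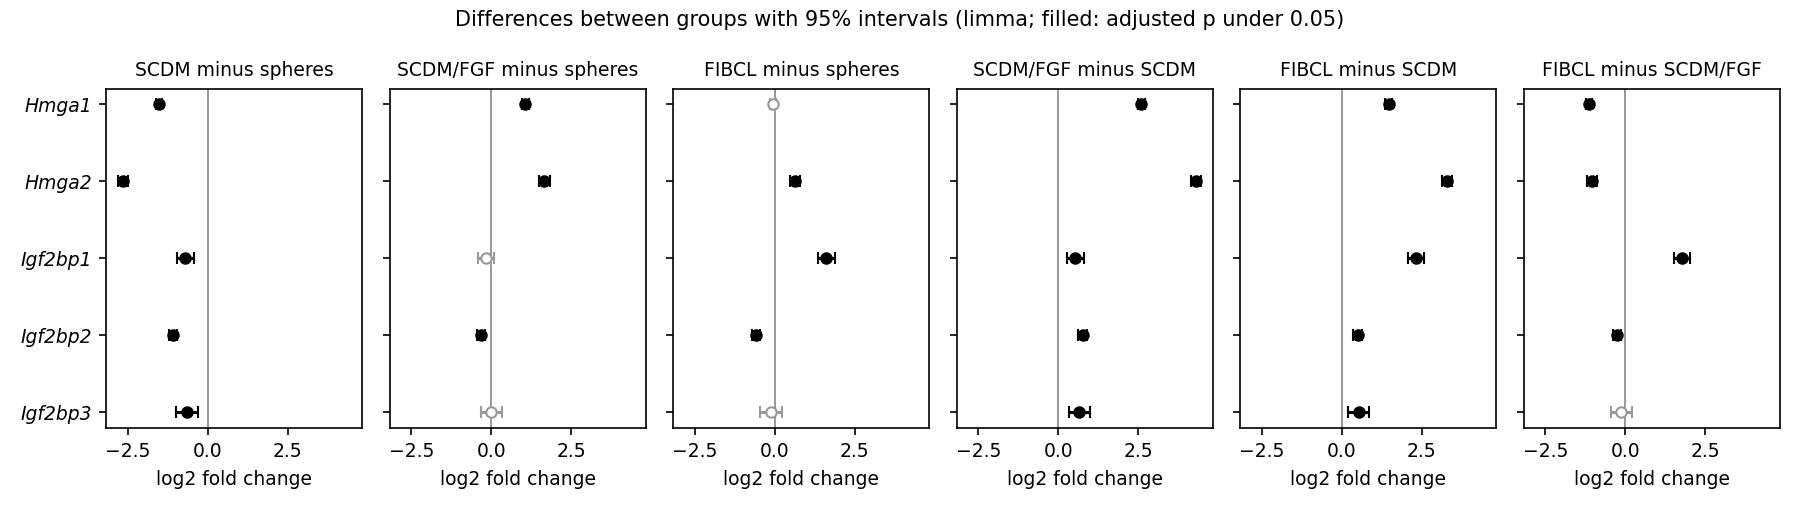
Log2 fold changes of the 5 tested genes in the 6 comparisons, with 95% intervals from limma; filled points have an adjusted p under 0.05. All 5 points lie left of 0 for SCDM minus spheres and right of 0 for both comparisons that subtract SCDM.

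**Figure D5:**
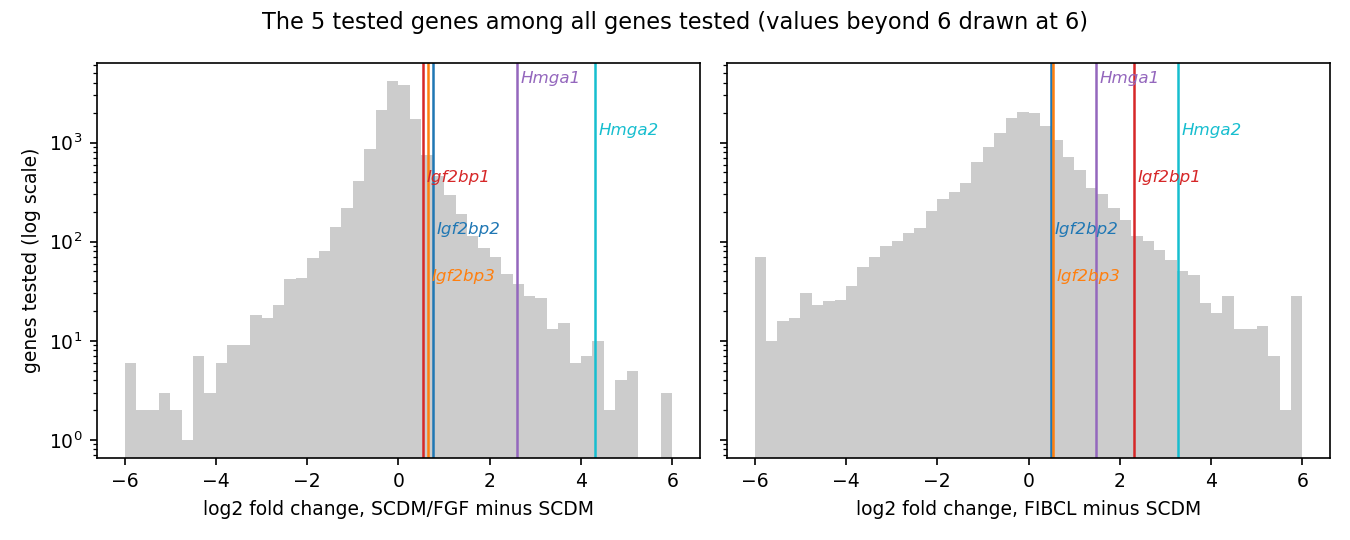
Histograms of the log2 fold change of all 16016 genes tested (count on a log axis), with the 5 tested genes as lines. Hmga2 and Hmga1 lie in the upper tail with added bFGF, at 4.31 and 2.60, and the 3 IGF2BP genes at 0.54 to 0.76 lie nearer to the bulk. The place of Igf2bp1 at 0.54 depends on the pseudocount of 1, since with 0.1 its value was 1.56.

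The genes whose log2 level over the 12 libraries was most like that of each tested gene were searched among genes with a mean of at least 5 rescaled TPM. The 12 libraries form 4 groups of 3, so such a correlation mostly compares 4 group levels, and it is given as a description. For Hmga2 they included Nsg1 (Pearson r = 0.989) and Nfkbia, an inhibitor of NF-kappa-B (r = 0.984), where 99% of 11124 genes had r under 0.903. For Hmga1 they were Mgat5, Nsg1 and Gnao1 (r = 0.987 to 0.989). For Igf2bp1 they were Arl8a, Gdf11 and Trp53inp1 (r = 0.993 to 0.996), where the 99% point was itself 0.975. For Igf2bp2 they were Rhou, Fkbp5 and Pamr1 (r = 0.973 to 0.980), and for Igf2bp3 Mpp6, Jph1 and Ttc21b (r = 0.899 to 0.918). Between the tested genes themselves, r was 0.973 for Hmga1 and Hmga2 and 0.167 for Igf2bp1 and Igf2bp2.

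The wider circuit was described with lists of genes other than the 7, for FIBCL minus SCDM. Of 22 tested genes of let-7 processing and decay, 3 rose and 13 fell, where 32.7% of all genes rose and 39% fell, and the list's median log2 fold change was -0.25 against -0.07 over all genes. The 3 that rose were Drosha, the nuclear nuclease that cuts primary microRNAs (0.63, adjusted p = 5.3e-06), and the Argonaute genes Ago2 (0.56, adjusted p = 0.000228) and Ago1 (0.20, adjusted p = 0.0272). Mbnl1, a splicing regulator, fell furthest (-3.69, adjusted p = 5.63e-12), from 158 to 11.3 rescaled TPM. Hnrnpa1, which binds primary let-7 transcripts, fell by 0.95 on the log2 scale (adjusted p = 5.85e-08), and Tent2, a terminal nucleotidyltransferase, fell by 1.03 (adjusted p = 4.24e-07). Dicer1, which cuts the hairpin, was at 12.6 ± 0.891 TPM in SCDM and 11.8 ± 1.26 TPM in FIBCL (SD, n = 3; adjusted p = 0.523).

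Of 37 tested genes known as let-7 targets, 16 rose and 13 fell in FIBCL against SCDM, against 32.7% and 39% of all genes, with a median of 0.07 against -0.07 over all genes. Among those that rose were Irs2, an insulin receptor substrate (1.26, adjusted p = 5.54e-08), and Cdc34, a ubiquitin-conjugating enzyme (1.22, adjusted p = 5.61e-09). Col3a1, a collagen chain of mesenchyme (-9.09), Myc (-2.94) and the matrix protein Thbs1 (-2.81) fell furthest, and Col3a1 is also one of the mesenchyme markers given above. With added bFGF, 17 of the 37 rose and 6 fell, against 21.8% and 21.3% of all genes, with a median of 0.21 against -0.02. For FIBCL minus SCDM/FGF, 12 of the 37 were higher and 17 lower, against 32.5% and 38.2% of all genes, with a median of -0.23 against -0.05. Whether the list differed from all genes was not tested. Of the whole list of 44, 30 held the seed match in the longest 3′ UTR. Among all other tested genes with a 3′ UTR, the median log2 fold change of FIBCL minus SCDM was 0.04 in the 1400 with at least 1 match, 0.10 in the 172 with at least 2 and 0.19 in the 23 with at least 3, against -0.07 in all 13715. For added bFGF the medians were 0.02, 0.04 and 0.21 against -0.01, and for FIBCL minus spheres 0.02, 0.09 and 0.15 against -0.05. The other comparisons had no such order, with -0.02, 0.03 and -0.01 against -0.06 for FIBCL minus SCDM/FGF, 0.01, 0.04 and -0.07 against -0.01 for SCDM/FGF minus spheres, and -0.03, -0.01 and -0.11 against -0.01 for SCDM minus spheres. The 3 sets are nested and were not matched on UTR length, whose part was not tested.

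Of 25 partners and client mRNAs of the IGF2BP proteins, 9 rose and 12 fell in FIBCL against SCDM, where 32.7% of all genes rose and 39% fell. The list's median of -0.07 was that of all genes, but it stands over genes that went both ways, with 3 higher and 4 lower by at least 1.5 on the log2 scale. Cd44, a hyaluronan receptor (2.11, adjusted p = 2.27e-11), Abcb1a, a drug efflux pump (2.05, adjusted p = 2.78e-09), and Ptgs2, which makes prostaglandins (1.43, adjusted p = 1.76e-08), rose. Igf2, the growth factor mRNA for which the family is named, fell from 1216 ± 81.7 to 28.8 ± 3.75 TPM (SD, n = 3; log2 fold change -5.36, adjusted p = 1.65e-11). H19, the imprinted non-coding RNA beside Igf2 that is known to bind let-7, fell from 2125 ± 137 to 0.872 ± 0.162 TPM (-10.15, adjusted p = 1.34e-12). In spheres, Igf2 was at 173 ± 3.21 TPM and H19 at 170.0 ± 3.06 TPM (SD, n = 3). In SCDM/FGF, Igf2 was at 796 ± 165 TPM and H19 at 1464 ± 485 TPM (SD, n = 3), both lower than in SCDM (-0.63, adjusted p = 0.00202, and -0.59, adjusted p = 0.0177). Myc, another client, was lowest in FIBCL at 4.91 ± 1.12 TPM, followed by spheres at 18.9 ± 0.882, SCDM at 43.7 ± 1.49 and SCDM/FGF at 50.3 ± 1.70 TPM (SD, n = 3).

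Among 14 tested genes of other HMG proteins, 4 rose and 5 fell in FIBCL against SCDM, against 32.7% and 39% of all genes, none by 1.5 or more on the log2 scale. Hmgn5 (0.76), Hmgxb3 (0.64) and Hmgn2 (0.51) rose most, and Hmgb2 (-1.20), Hmgb1 (-1.20) and Ubtf (-0.84) fell most. With added bFGF, 1 of the 14 rose and 5 fell, against 21.8% and 21.3% of all genes, and whether they differed from Hmga1 and Hmga2 was not tested. Hmgn2, a nucleosome-binding protein, was at 304 ± 7.92 TPM in SCDM and 167 ± 11.0 TPM in SCDM/FGF (SD, n = 3).

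HMGA2 is known to hold down the Ink4a and Arf transcripts of Cdkn2a in young neural stem cells. Here Cdkn2a was highest in FIBCL at 319 ± 9.52 TPM, then in SCDM/FGF at 182 ± 14.2, SCDM at 74.5 ± 4.36 and spheres at 30.1 ± 5.88 TPM (SD, n = 3). SCDM/FGF and FIBCL were thus the upper 2 groups for both Cdkn2a and Hmga2, in opposite order, and the lowest group was spheres for Cdkn2a and SCDM for Hmga2. Of 6 genes of this locus and its link to Hmga2, 5 rose and 1 fell in FIBCL against SCDM, and 5 rose and 1 fell with added bFGF, where 32.7% and 21.8% of all genes rose. Cdkn1a, the p53-responsive inhibitor p21, rose to 877 ± 22.0 TPM from 124 ± 5.14 TPM (2.82, adjusted p = 5.27e-12), and Cdkn2b rose by 1.30 (adjusted p = 1.6e-08). Cdkn2c, another inhibitor of the INK4 type, fell (-2.72, adjusted p = 2.19e-08). The proliferation gene Mki67 was at 0.0374 ± 0.0018 TPM in FIBCL, 18.8 ± 2.45 in SCDM, 13.1 ± 2.45 in SCDM/FGF and 5.45 ± 0.797 in spheres (SD, n = 3). Mki67 was lower in FIBCL than in SCDM/FGF (-3.75, adjusted p = 5.78e-10).

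Of 14 tested genes among other fetal and stem cell RNA-binding or chromatin genes, 7 rose and 4 fell in FIBCL against SCDM, where 32.7% of all genes rose and 39% fell, with a median of 0.23 against -0.07. Jarid2, a partner of the Polycomb complex, rose (2.80, adjusted p = 1.8e-08), with 728 ± 146 TPM in FIBCL and 103 ± 4.73 TPM in SCDM (SD, n = 3). Msi1, a neural progenitor RNA-binding protein (0.86, adjusted p = 4.71e-05), and Plag1, a fetal transcription factor (0.79, adjusted p = 0.000101), also rose. Uhrf1, which maintains DNA methylation in dividing cells (-2.74, adjusted p = 2.01e-09), and the imprinted Peg3 (-2.11, adjusted p = 2.75e-08) fell. Against spheres, 3 of the 14 were higher and 7 lower in FIBCL, where 32.9% of all genes were higher and 38.7% lower. The median there was -0.19 against -0.06. Of the named genes that rose against SCDM, Plag1 was at 8.30 TPM in spheres and 4.60 in FIBCL. Msi1 was at 15.7 and 14.8 TPM, and Jarid2 at 31.3 and 728 TPM.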

How the data were processed

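Reads were trimmed (SeqPrep, Sickle), aligned (TopHat) and turned into gene abundances (RSEM) by the authors, and the deposited table gives TPM with no read counts. The alignment is described as run in an orientation mode, but the genome build and whether RSEM counted by strand are not given in the sources used here. Libraries were rescaled by the mean log2 ratio, trimmed by 30% at each end, over 8434 genes that reached 5 TPM throughout. All 12 libraries entered 1 limma fit (limma 3.58.1, R 4.3.3, trend on mean expression) of log2(rescaled TPM + 1) without a block, and genes with an adjusted p under 0.05 were called. For a check of FIBCL minus SCDM, data were simulated around each gene's mean over all 12 libraries, with its spread within groups. Changes were added to FIBCL only for genes with a mean log2 value above 2, so lower genes were not checked. The fit called 100 of 100 genes changed by 2 on the log2 scale and 92 of 100 changed by 1. It also called 11 unchanged genes among 16016. The 7 genes were all named, and from each list the 3 highest and 3 lowest called genes with a mean of at least 5 rescaled TPM, with Igf2, Dicer1, Trim71, Cdkn2a, Myc and Mki67 named whatever their values; 1 gene that this rule names is not reported here. These genes and the lists were chosen with earlier results of these data known. UTRs came from GENCODE M21 (Python 3.11.15, pandas 2.3.3), where 55141 of 55487 table identifiers were found.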

Additional observations from a re-analysis of the deposited data

How the results depend on the processing

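Each comparison was refitted under other scalings, limits on low values, pseudocounts, variance models and sets of libraries. On deposited TPM, 3 of the 5 tested genes were called for FIBCL minus SCDM in place of 5, while the calls over all genes went from 11480 to 12202. With the limit at 0.1 TPM, which admits Lin28a and Lin28b, 7 were called for FIBCL minus SCDM in place of 5, 6 for FIBCL minus SCDM/FGF in place of 4 and 5 for FIBCL minus spheres in place of 3. Over all genes, the calls of these comparisons went from 11480 to 12848, from 11327 to 12622 and from 11470 to 12818. The Lin28 genes pass that limit only through FIBCL. With the limit at 5 TPM, Igf2bp1 had no fit. When the log2 fold change also had to reach 1 in size, the counts were 3 for FIBCL minus SCDM and 1 for FIBCL minus spheres. They were 3 for SCDM minus spheres and 2 for SCDM/FGF minus SCDM. For FIBCL minus SCDM/FGF the count was 3, with 1 higher and 2 lower. For SCDM/FGF minus spheres, Hmga1 (1.07) and Hmga2 (1.66) reached that size. With 1.5 in place of 1, the counts were 2 higher for FIBCL minus SCDM, against 7.89% of all genes. They were 2 lower for SCDM minus spheres, against 2.41%, and 2 higher for SCDM/FGF minus SCDM, against 2.88%. At 1.5 the count was 1 for FIBCL minus SCDM/FGF, 1 for FIBCL minus spheres and 1 for SCDM/FGF minus spheres. Shares of all genes are not given for those comparisons or for a size of 1, so these counts describe the tested genes only. No called value reversed, and leaving out any 1 library changed no call. Depth could not be assessed from TPM, so values as low as those of the Lin28 genes have no counting error here.

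The replicate numbers were not treated as pairs: libraries of the same number correlated between -0.12 and 0.10 in their deviations from group means over 18 pairs, and a library correlated best with its own number in 15 of 36 cases. With the replicate number as a block, 5, 4, 3, 5, 3 and 5 of the tested genes were called for FIBCL minus SCDM, FIBCL minus SCDM/FGF, FIBCL minus spheres, SCDM minus spheres, SCDM/FGF minus spheres and SCDM/FGF minus SCDM, the same counts as without it. Over all 16016 genes, 11391, 11215, 11347, 7836, 7872 and 6692 were called with the block, in the same order of comparisons. The block moved the calls of SCDM/FGF minus SCDM from 6910 to 6692, the largest proportional move of the 6.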
